A study of Rattus norvegicus with 20 samples.

Results

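Macrophage and Kupffer cell markers were followed in the liver of rats fed a control diet or 1 of 3 diets that held an enzyme inducer. The markers were 10 named genes, Cd163, Tyrobp, Laptm5, Cd68, Marco, Clec4f, C1qa, C1qb, C1qc and Csf1r, and they were found by their gene symbol in the annotation of the array. Of these, 9 had a probe set, out of 14217 genes on the array, and all 9 were among the 7837 genes kept after a filter on low values. Marco had no probe set of that name and was not analysed here. Laptm5 had 2 probe sets, so that 10 probe sets in all carried the markers.

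The 20 animals were female Sprague Dawley rats, 5 per diet, and each liver gave 1 array. The control group ate an unsupplemented Harlan Teklad mash diet. The BNF group ate the same diet with 5,6-benzoflavone, an agonist of the aryl hydrocarbon receptor, at 1650 mg/kg diet. The D3T group received 3H-1,2-dithiole-3-thione at 600 mg/kg diet, and the OLT group received oltipraz, a dithiolethione that carries an added methyl group and a pyrazinyl group, at 500 mg/kg diet. All diets were fed for 24 days. The age of the rats was not given in the sources used here, and the doses of the dithiolethiones differed. Values are deposited log2 expression levels, so that a difference of means on this scale is a log2 fold change.

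Kupffer cells are the resident macrophages of the liver. They line the sinusoids, take up particles, bacteria and aged red cells from portal blood, and depend on signals through the receptor encoded by Csf1r for their survival. Monocytes that enter an injured liver also become macrophages, and they share most of these markers. In the rat, Clec4f encodes a lectin known as a Kupffer cell receptor, whereas Cd68, Tyrobp, Laptm5 and Csf1r mark mononuclear phagocytes more widely. The liver parenchyma itself consists mostly of hepatocytes, so that macrophage transcripts reach whole-liver RNA from a minority of its cells. In such bulk RNA, a change in the number of macrophages and a change in the RNA per macrophage cannot be told apart.

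The tissue label was borne out by the hepatocyte markers. The mean log2 level over 23 measured hepatocyte genes lay between 14.32 and 14.71 in all 20 arrays, and Alb, which encodes albumin, averaged 16.15 in controls. Correlations between arrays over the kept probe sets ranged from 0.930 to 0.992. The array labelled D3T 5 correlated more closely with the OLT arrays (mean 0.979) than with its own group (0.968), and the array labelled OLT 1 correlated more closely with the D3T arrays (0.966) than with its own (0.963). The array labelled OLT 5 correlated more closely with the control (0.970) and BNF (0.968) arrays than with its own group (0.965). Marker counts are therefore also given without D3T 5 and OLT 1 and without OLT 5. Centring each array on its own median moved the median difference of all kept probe sets against control from -0.02 to 0.12 in D3T and from -0.04 to 0.13 in OLT. The same centring raised the share of higher calls from 42.0% to 57.7% for BNF, from 39.9% to 63.1% for D3T and from 24.0% to 56.1% for OLT, and it lowered that share from 55.4% to 41.6% for BNF against OLT. Quantile normalization gave 54.4%, 49.9% and 43.6% for the 3 control comparisons.

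The genes of the C1q chains lie side by side, and the stretch before the start of a marker gene is the DNA that macrophage transcription factors are known to read. C1qb, C1qc and C1qa are consecutive protein-coding genes on chromosome 5 of the RefSeq assembly GRCr8. The 250 bases before the annotated start were taken from RefSeq for 8 of the 10 markers. Those of C1qa, C1qb and Cd163 are shown because the first pair lies in the same gene cluster and Cd163 is the member whose values departed from the others. C1qa is at chr5:154419934-154420183 on the minus strand, C1qb at chr5:154407828-154408077 on the minus strand and Cd163 at chr4:158770524-158770773 on the plus strand. Capitals mark GAGGAA on either strand, the core of the sequence bound by PU.1, the master regulator of macrophage genes.
C1qa: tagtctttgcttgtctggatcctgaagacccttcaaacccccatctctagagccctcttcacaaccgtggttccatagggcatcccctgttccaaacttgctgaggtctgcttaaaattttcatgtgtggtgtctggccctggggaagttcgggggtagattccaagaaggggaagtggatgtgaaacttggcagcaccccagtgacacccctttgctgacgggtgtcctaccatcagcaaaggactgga
C1qb: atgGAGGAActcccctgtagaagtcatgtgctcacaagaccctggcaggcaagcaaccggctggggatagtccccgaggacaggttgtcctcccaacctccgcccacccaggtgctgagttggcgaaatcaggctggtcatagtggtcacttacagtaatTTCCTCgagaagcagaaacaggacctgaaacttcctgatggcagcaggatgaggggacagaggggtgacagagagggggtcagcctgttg
Cd163: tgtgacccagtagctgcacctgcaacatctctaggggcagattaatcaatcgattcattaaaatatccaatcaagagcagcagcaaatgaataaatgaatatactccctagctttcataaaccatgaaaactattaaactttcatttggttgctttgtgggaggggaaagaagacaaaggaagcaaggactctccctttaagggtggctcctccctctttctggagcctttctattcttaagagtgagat

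GAGGAA or its reverse complement TTCCTC was found in the window of 5 of the 8 markers, namely Laptm5, C1qb, Cd68, Marco and Csf1r, and in 23.3% of all 33469 promoters searched in the same way. C1qb held it at 2 places, and neither C1qa nor Cd163 held it. The longer form GAGGAAGT was in none of the 8 windows and in 2.04% of all promoters. The core of the aryl hydrocarbon receptor site, GCGTG, was in 1 of the 8 (Csf1r) against 25.9% of all promoters, and the antioxidant response core TGACNNNGC was in 1 of the 8 (Clec4f) against 10.1%. These are letter matches on both strands, and binding was not measured.

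The 3 C1q genes encode the chains that assemble into the recognition molecule of the classical complement pathway, which macrophages secrete. For C1qa the 5 control arrays read 9.46, 9.31, 10.13, 9.36 and 9.88, the BNF arrays 10.60, 10.93, 10.05, 10.40 and 10.29, the D3T arrays 9.77, 8.88, 9.60, 8.85 and 9.38, and the OLT arrays 9.23, 8.85, 8.27, 8.78 and 9.88. The BNF arrays were the highest set and overlapped the controls only because control 3 (10.13) exceeded BNF 3 (10.05). For C1qb the values were 8.63, 8.42, 9.23, 8.24 and 8.95 in controls, 10.06, 10.47, 9.17, 10 and 9.59 with BNF, 9.49, 6.88, 8.61, 8.63 and 8.60 with D3T, and 8.48, 8.04, 6.86, 7.46 and 9.09 with OLT. Here D3T 2 and OLT 3 stood lowest, at 6.88 and 6.86. For C1qc they were 9.19, 9.0, 10.16, 9.09 and 9.85 in controls, 10.62, 11.28, 9.86, 10.23 and 10.14 with BNF, 9.79, 8.51, 9.50, 9.31 and 9.47 with D3T, and 9.14, 9.03, 8.39, 8.35 and 9.79 with OLT. The BNF and control arrays overlapped because control 3 (10.16) exceeded BNF 3 (9.86) and BNF 5 (10.14), and the D3T and OLT arrays lay across the control range and below it.

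The surface receptors followed. Clec4f, the Kupffer cell lectin, read 10.08, 10.05, 10.74, 10.08 and 10.49 in controls, 10.97, 11.68, 10.52, 10.53 and 10.54 with BNF, 10.65, 9.80, 10.31, 10.29 and 10.19 with D3T, and 10.18, 9.56, 8.97, 9.19 and 10.56 with OLT. Its groups overlapped throughout, and its OLT values spread over 1.58. Csf1r, the receptor for the growth factor that maintains macrophages, read 7.48, 7.26, 7.75, 7.33 and 7.56 in controls, 8.53, 9.04, 8.31, 8.44 and 8.47 with BNF, 8.11, 6.50, 7.14, 7.44 and 7.65 with D3T, and 6.30, 7.19, 7.11, 6.52 and 8.24 with OLT. Every BNF array lay above every control array for Csf1r. Cd163, the scavenger receptor for complexes of haptoglobin and haemoglobin, read 7.29, 6.98, 7.29, 6.94 and 7.65 in controls, 7.45, 8.69, 6.90, 7.77 and 7.40 with BNF, 7.22, 5.91, 5.67, 6.11 and 6.22 with D3T, and 5.28, 5.76, 4.93, 5.70 and 7.19 with OLT. For Cd163, 4 of the 5 D3T arrays and 4 of the 5 OLT arrays lay below the lowest control (6.94), and the exceptions were D3T 1 and OLT 5.

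Cd68 and Laptm5 encode proteins of late endosomes and lysosomes, and Tyrobp encodes an adaptor that carries signals from several myeloid receptors. Cd68 read 5.37, 5.30, 6.63, 5.22 and 5.77 in controls, 7.14, 7.97, 6.01, 6.57 and 6.85 with BNF, 6.61, 5.65, 5.90, 5.78 and 5.79 with D3T, and 5.41, 5.31, 4.83, 4.34 and 6.01 with OLT. Its control group held 1 high array, control 3 at 6.63. Tyrobp read 4.38, 4.38, 4.71, 4.25 and 4.42 in controls, 5.55, 6.06, 4.65, 5.30 and 5.24 with BNF, 4.49, 3.97, 4.42, 4.37 and 4.37 with D3T, and 4.14, 4.25, 3.84, 3.89 and 4.60 with OLT. All BNF arrays but BNF 3 lay above the highest control. Laptm5, by its probe set with the higher mean, read 4.08, 3.49, 4.52, 3.73 and 3.98 in controls, 5.04, 5.44, 4.26, 4.93 and 4.78 with BNF, 4.17, 3.58, 3.99, 3.70 and 3.94 with D3T, and 3.78, 3.73, 3.06, 3.39 and 4.48 with OLT. These low values passed the filter only through the BNF arrays, so each count of called markers is also given over the other 8 genes. The other Laptm5 probe set was not kept, and its means were 2.64 ± 0.18 in controls, 4.45 ± 0.67 with BNF, 2.60 ± 0.06 with D3T and 2.73 ± 0.56 with OLT (SD, n = 5 each).

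**Figure D1:**
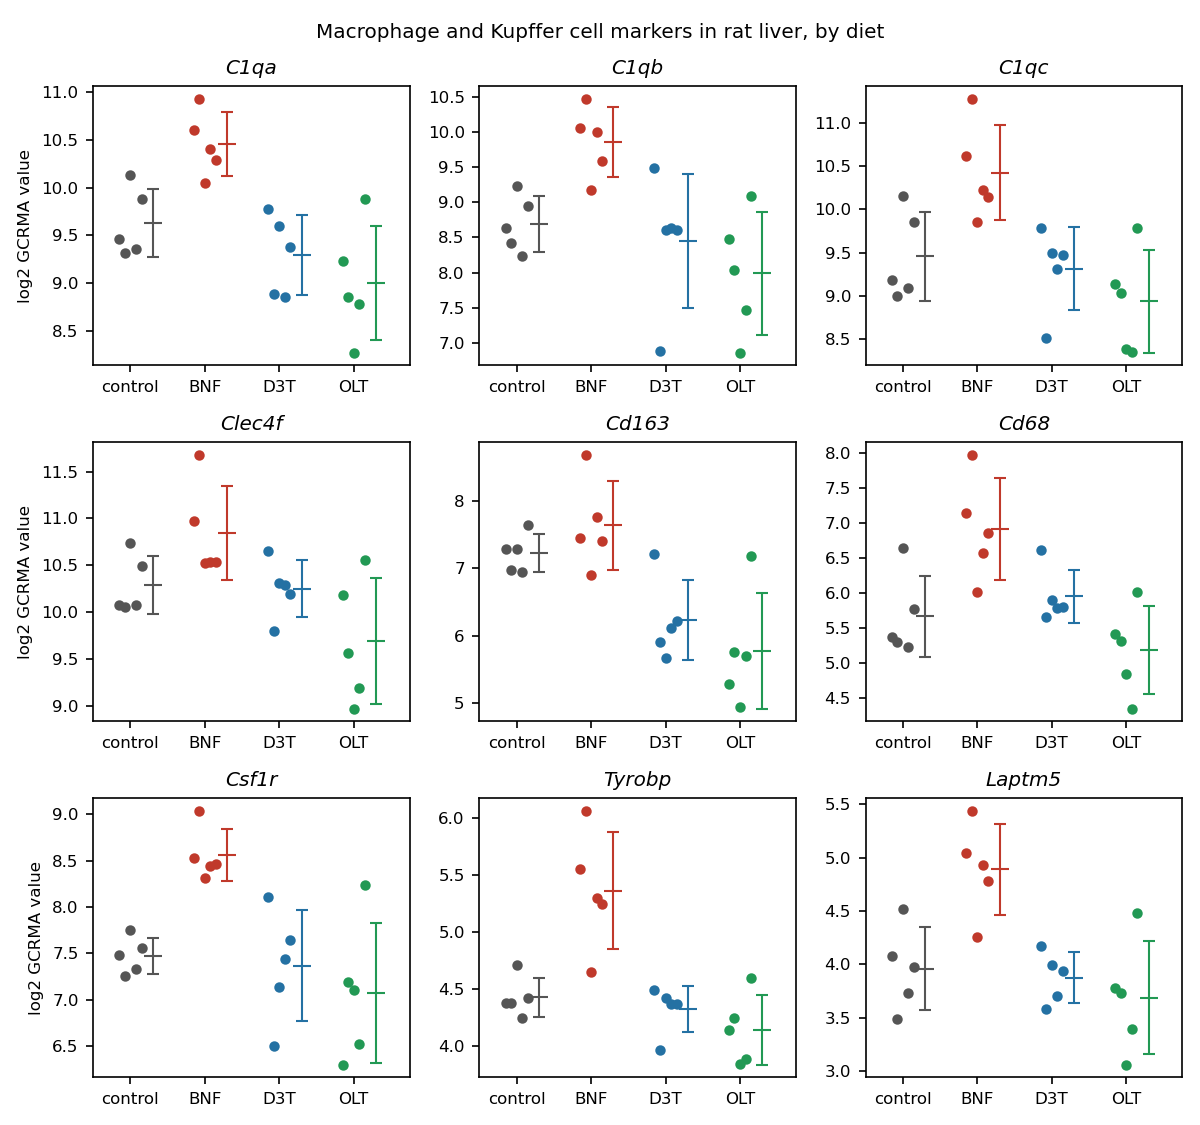
Log2 values of the 9 measured markers in each of the 20 arrays, 1 panel per gene, with the mean and SD of each diet (n = 5) beside the points. The BNF arrays sit highest in every panel by their mean, Csf1r separates BNF from control without overlap, and for Cd163 most D3T and OLT arrays sit below the lowest control at 6.94.

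BNF against control asks how the aryl hydrocarbon receptor agonist was associated with macrophage transcripts. All 9 markers had a higher mean with BNF, by 0.41 to 1.25 on the log2 scale (median 0.93, against -0.05 for all kept probe sets). In limma's moderated test with Benjamini-Hochberg adjustment, 2 of the 9 were called, Tyrobp and Laptm5, where 3.48% of all kept probe sets were called and 1.46% were called higher. Tyrobp rose by 0.93 ± 0.20 (SE, limma adjusted p = 0.0112), a 1.91-fold change, and 4 of 5 BNF arrays exceeded every control. Laptm5 differed by 0.93 ± 0.24 (SE, limma adjusted p = 0.0388), but it was tested only because its BNF arrays were high, so this call is no support for a rise. With no filter its limma adjusted p was 0.082. Without Laptm5, 1 of 8 was called, with a median of 0.95.

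The other 7 markers did not pass this test. Cd68 differed by 1.25 (95% interval 0.52 to 1.99, limma adjusted p = 0.0551), Csf1r by 1.08 (0.44 to 1.72, 0.0579) and C1qa by 0.83 (0.28 to 1.38, 0.0959). C1qc differed by 0.97 (0.30 to 1.64, limma adjusted p = 0.109) and C1qb by 1.16 (0.28 to 2.05, 0.153). Clec4f differed by 0.56 (-0.02 to 1.15, limma adjusted p = 0.339) and Cd163 by 0.41 (-0.37 to 1.20, 0.701). Without overlap between groups stood 1 of the 9, Csf1r (also 1 of the 8 without Laptm5), against 2.62% of all kept probe sets.

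The Laptm5 call was lost, at a limma adjusted p between 0.0505 and 0.116, without BNF 1 or BNF 2, BNF 4 or BNF 5, control 1 or control 2, control 4 or control 5, or OLT 2, each left out alone. Without the arrays labelled D3T 5 and OLT 1, 3 markers were called (2 of the 8), Csf1r (limma adjusted p = 0.044) in addition to both above. Without OLT 5, 5 were called (4 of the 8), with Cd68 (limma adjusted p = 0.0426), Csf1r (0.0169) and C1qa (0.049) added. Single further arrays also moved calls. Cd68 passed without control 3, BNF 3 or OLT 4 (limma adjusted p = 0.0198, 0.0214 and 0.0467), and Csf1r passed without D3T 1, D3T 2 or OLT 1 (0.0451, 0.039 and 0.0407).

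D3T against control called none of the 9 markers, where limma called 11.6% of all kept probe sets, and 1 marker had an unadjusted p under 0.05. That marker was Cd163, which differed by -1.0 ± 0.38 (SE, limma adjusted p = 0.0928). Its limma adjusted p was 0.0361 without D3T 1 and 0.0382 without OLT 5, which made it 1 called marker in each case. Without both D3T 5 and OLT 1 none of the 9 was called, and Cd163 differed by the same -1.0 (limma adjusted p = 0.122). Over the 8 markers without Laptm5 the count was also 0. The other 8 differed by between -0.33 and 0.29, Cd68 being the 1 marker with a higher mean. The median over the 9 was -0.11, against -0.02 for all kept probe sets. The small negative differences of Tyrobp, Laptm5, Clec4f, C1qc and Csf1r turned positive when arrays were centred on their medians, and that of Csf1r also did under quantile normalization.

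OLT against control called 1 of the 9 markers, Cd163, which fell, where limma called 6.38% of all kept probe sets and 4.85% as lower. Cd163 fell by 1.46 on the log2 scale (SE 0.38, 95% interval -2.24 to -0.67, limma adjusted p = 0.0254), from 7.23 ± 0.29 in controls to 5.77 ± 0.86 (SD, n = 5). This call was lost without control 1 (limma adjusted p = 0.0569), control 5 (0.0649), OLT 1 (0.0685), OLT 2 (0.0506) or OLT 3 (0.0708), and without both D3T 5 and OLT 1 the difference was -1.33 (0.0766) and no marker was called. Over the 8 markers without Laptm5 the count was also 1. All 9 means were lower than in controls, by a median of -0.52 against -0.04 for all kept probe sets, and the 8 markers other than Cd163 differed by between -0.71 and -0.27. Without OLT 5, the highest OLT array for every marker, C1qa was called as well, at -0.85 (limma adjusted p = 0.0344).

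OLT against D3T set the related dithiolethiones beside each other at unequal doses, and limma called 0% of the kept probe sets and none of the 9 markers (0 of 8 without Laptm5). Over all probe sets that count moved with these arrays: 549 were called without both D3T 5 and OLT 1, and 236 without D3T 5 alone. None of the 9 markers was called without both, or without OLT 5. At an unadjusted p under 0.05 stood 1 marker, Cd68, at -0.77 (95% interval -1.50 to -0.03, limma adjusted p = 0.44). The interval for Cd163 ran from -1.24 to 0.33, for Clec4f from -1.14 to 0.03, for C1qb from -1.34 to 0.43 and for Csf1r from -0.94 to 0.34. With 5 rats per diet, differences as large as these bounds are not excluded by the data.

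BNF against D3T called 7 of the 9 markers as higher with BNF, where limma called 14.9% of all kept probe sets and 6.24% as higher. They rose by 1.02 to 1.42, with a median over all 9 of 1.11 against -0.02 for all kept probe sets. C1qb (1.42 ± 0.42 SE, limma adjusted p = 0.0291), Cd163 (1.42 ± 0.38 SE, 0.0149) and Csf1r (1.19 ± 0.31 SE, 0.0126) had the largest differences. Cd68 (0.96, limma adjusted p = 0.0724) and Clec4f (0.60, 0.165) did not pass. Tyrobp, Laptm5, C1qa, C1qc and Csf1r did not overlap between the groups, which is 5 of 9 against 4.76% of all kept probe sets. Since Laptm5 was tested only because its BNF arrays were high, the counts over the other 8 were 6 called and 4 without overlap. Without both D3T 5 and OLT 1, as without OLT 5, 7 of the 9 were called, or 6 of the 8. The C1qb call was lost without BNF 1 (limma adjusted p = 0.0649), BNF 2 (0.0717), BNF 4 (0.0593), D3T 2 (0.0806) or D3T 3 (0.0509). The C1qc call was lost without BNF 1 (limma adjusted p = 0.0574), BNF 2 (0.0685) or D3T 2 (0.0728), and Cd68 passed without BNF 3 (0.0318) or D3T 1 (0.0405).

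BNF against OLT called all 9 markers as higher with BNF, where limma called 9.62% of all kept probe sets and 5.33% as higher. The 9 rose by 1.16 to 1.87, which is 2.23-fold to 3.66-fold, with limma adjusted p between 7.43e-04 and 0.0125. Cd163 and C1qb differed most, each by 1.87, and Clec4f least, by 1.16 ± 0.28 (SE). Tyrobp, Cd68, C1qa, C1qb, C1qc and Csf1r did not overlap, which is 6 of 9 against 4.29% of all kept probe sets. Over the 8 markers without Laptm5, 8 were called and 6 did not overlap. The count stayed at 9 (8 without Laptm5) whichever single array was left out, and without both D3T 5 and OLT 1. The order of the 4 means was BNF, control, D3T and OLT for 8 markers and BNF, D3T, control and OLT for Cd68. Among neighbours in that order the test separated only BNF and control, and only for Tyrobp and for Laptm5, which was tested only through its BNF arrays. These 6 comparisons share their arrays and are not independent of each other.

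**Figure D2:**
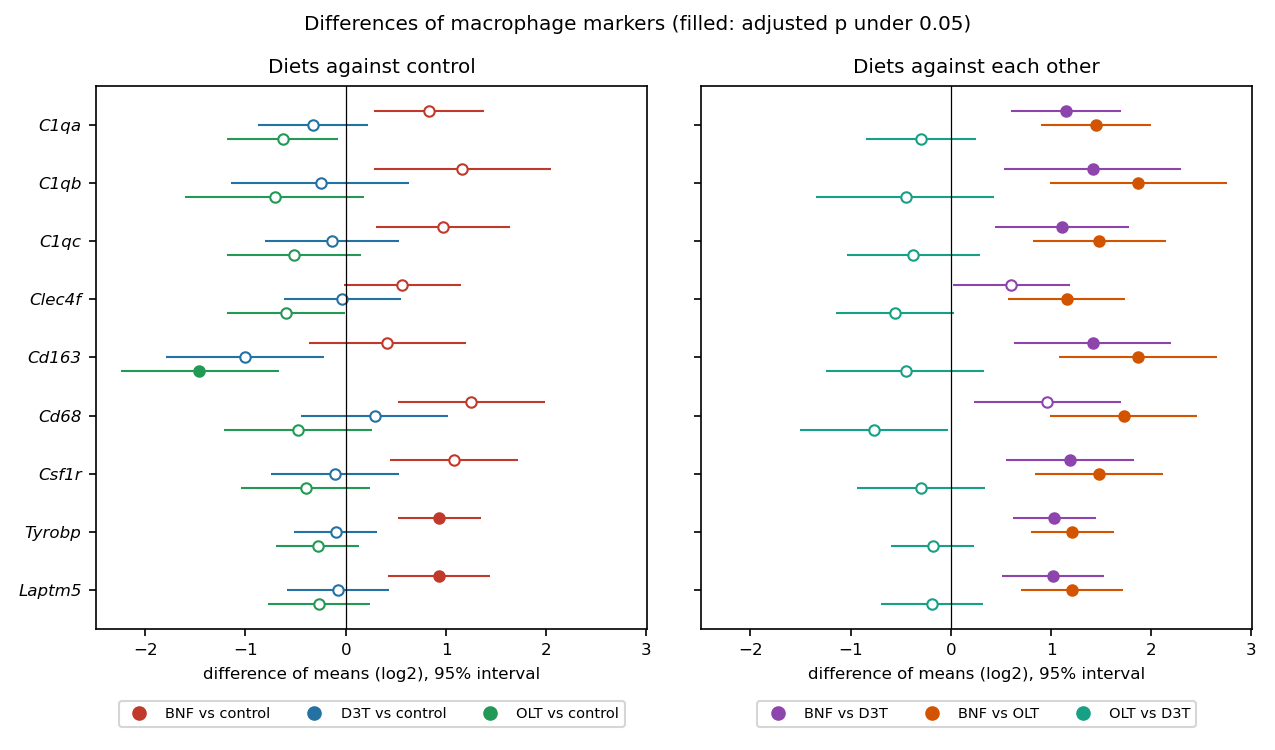
Differences of diet means on the log2 scale for the 9 markers, with 95% intervals from limma, filled where the adjusted p was under 0.05. Against control, the filled points are Tyrobp and Laptm5 with BNF and Cd163 with OLT, and against OLT all 9 BNF differences are filled.

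Cd163 departed from the other 8 markers in its differences from control, a pattern picked out after the values were seen and given without a test. Its difference was lower than theirs by 0.67 to 1.29 with D3T and by 0.75 to 1.18 with OLT. With BNF it was lower than theirs by 0.15 to 0.84. The gap between Cd163 and a second marker within the same array did not overlap with the controls for 2 of the 8 with D3T, Cd68 and Csf1r. With OLT it did not for 2 of the 8, Laptm5 and Csf1r. The control means of Tyrobp (4.43) and Laptm5 (3.96) lay near the filter cut of 4, against 7.23 for Cd163.

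Within a diet the markers moved together from array to array. Control 3 was the highest control for 8 of the 9 markers, BNF 2 the highest and BNF 3 the lowest BNF array for all 9, D3T 1 the highest D3T array for all 9, and OLT 5 the highest OLT array for all 9. D3T 2 was the lowest in its group for 7 markers and OLT 3 for 6. The deviations from the diet means correlated at 0.59 to 0.93 (median 0.80) over the 36 pairs of markers in 20 arrays, from Clec4f with Csf1r to Clec4f with C1qc. These points share the array and are given as a description. The median of the kept probe sets was the highest of its diet in D3T 1 (7.34) and OLT 5 (7.46). It was the lowest of its diet in D3T 2 (7.02) and OLT 3 (6.92), but also in BNF 2 (7.07) and control 3 (7.17), where markers were highest. The part of the array level in the shared movement was not tested.

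**Figure D3:**
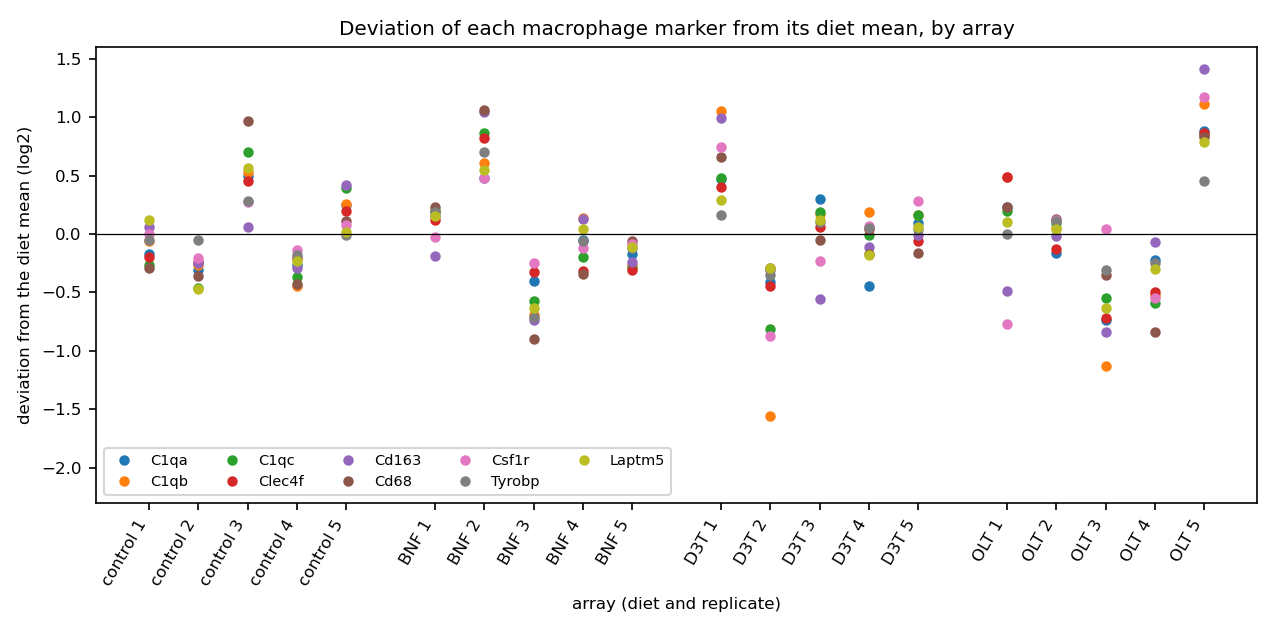
Deviation of each of the 9 markers from its own diet mean (log2) in the 20 arrays, 1 colour per marker. The points of an array lie on the same side for all 9 markers in control 3, BNF 2, D3T 1 and OLT 5 (above the mean) and in control 2, control 4, BNF 3, BNF 5, D3T 2 and OLT 4 (below it).

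The genes most like the markers were ranked by the correlation of their deviations from the diet means with the mean deviation of the 9 markers, over 20 arrays and 7828 other genes. Ccl6, a chemokine of myeloid cells, came first at 0.96, followed by Grn, the gene of the lysosomal protein progranulin, at 0.94. Anxa3, an annexin, stood at 0.93, Cd5l, a protein secreted by macrophages, at 0.92, and Ifitm1, an interferon-induced membrane protein, at 0.92. The median over all these genes was 0.10, and 29 exceeded 0.8. With BNF, Anxa3 rose over control by 1.27 ± 0.34 (SE, limma adjusted p = 0.0416) and Ifitm1 by 1.08 ± 0.27 (SE, 0.0344). The BNF difference was 0.69 for Ccl6, 0.30 for Grn and 0.73 for Cd5l, and none of these passed.

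A wider list of 42 macrophage genes had 23 measured members. With BNF 3 of the 23 rose and none fell: Lgals3, the gene of galectin, by 2.03 ± 0.39 (SE, limma adjusted p = 0.00595), Cd53, a leukocyte tetraspanin, by 1.75 ± 0.30 (0.00271), and Lcp1, the leukocyte form of plastin, by 1.25 ± 0.27 (0.012). Cd53, Cybb and Fcgr3a would not have passed the filter without the BNF arrays, and without these genes 2 of 20 were called, with a median of 0.74. The median of the 23 was 0.82 against -0.05 for all kept probe sets, and 21 had a higher mean. The count was 5 without control 1 and 6 without OLT 5. Adgre1, the gene of an adhesion receptor of macrophages, differed by 1.26 and Lyz2, macrophage lysozyme, by 1.81, and both missed the threshold (limma adjusted p = 0.0536 and 0.0665). Mpeg1, the gene of perforin-2, differed by 0.00, and Cd14, the endotoxin co-receptor, by -0.62 (limma adjusted p = 0.999 and 0.675). None of the 23 was called with D3T (median -0.16) or with OLT (median -0.36). The smallest p belonged to Nr1h3, the LXR-alpha receptor, with D3T (-0.42, limma adjusted p = 0.0828) and to Ctss, the gene of cathepsin S, with OLT (-0.80, 0.146). Cybb differed by -1.41 with D3T and by -0.87 with OLT (limma adjusted p = 0.101 and 0.347), from a control mean of 4.33 near the filter cut. BNF was higher than D3T for 13 of the 23 and higher than OLT for 16, or for 10 and 13 of the 20. Without both D3T 5 and OLT 1 the counts over the 23 were 13 and 11, and 1 gene was then called for D3T against control.

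Genes around the markers' own pathways were followed next. Of 9 genes for C1q partners and the classical complement pathway, 5 were measured and none was called in any comparison with control. C1s, the gene of a serine protease that acts together with C1q, differed by 0.54 with BNF (limma adjusted p = 0.0613), and it was higher with BNF than with D3T and than with OLT. Of 8 genes of the Csf1r and Tyrobp axis, 2 were measured. Csf1, the ligand of Csf1r, differed by 0.17 with BNF (limma adjusted p = 0.826), and Fcer1g, an adaptor related to Tyrobp, by 0.94 (0.0888). Of 8 MHC class II genes, which present antigen on macrophages, dendritic cells and B cells, 7 were measured. With BNF 3 rose, RT1-Db1 by 1.84 ± 0.36 (SE, limma adjusted p = 0.00611), RT1-Da by 1.65 ± 0.36 (0.0122) and Cd74, the invariant chain, by 1.38 ± 0.31 (0.0149). With D3T 1 of the 7 fell, RT1-DMa, by 1.40 on the log2 scale (limma adjusted p = 0.00653), and none was called with OLT. BNF was higher than D3T for all 7 and higher than OLT for 4, where 6.24% and 5.33% of all kept probe sets were called higher. With the endothelial mean of each array as a covariate, 0 of the 7 were called for BNF against control, where 1.49% of all kept probe sets were called. That covariate left 7 called for BNF against D3T and 3 for BNF against OLT, where 10.9% and 3.85% of all kept probe sets were called.

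Genes of incoming monocytes and of other blood cells gave few measured members. Of 19 monocyte and inflammation genes 4 were measured. Gpnmb, a gene of lipid-laden and phagocytic macrophages, rose with BNF by 2.87 ± 0.34 (SE, limma adjusted p = 4.36e-05) from a mean of 2.65 in controls. It passed the filter through the 5 BNF arrays alone and so had to differ. S100a6 rose with D3T by 0.54 (limma adjusted p = 0.0168), the 1 higher mean with D3T among the 4, whose median was -0.05. Plac8 differed by -1.09 with D3T and by -1.45 with OLT (limma adjusted p = 0.288 and 0.175). It was higher with BNF than with D3T (2.17, limma adjusted p = 0.0237) and than with OLT (2.53, 0.0141). Of 18 lymphocyte and natural killer cell genes 5 were measured, and Il2rb, a receptor chain for interleukin, rose with BNF by 0.60 (limma adjusted p = 0.00915). The list as a whole moved little: 3 of the 5 had a higher mean with BNF, at a median of 0.12 against -0.05 for all kept probe sets. That median was 0.04 without Ccl5, which needed its BNF arrays to pass the filter. Of 11 neutrophil genes 1 was measured and it was not called. Of 12 cholangiocyte genes 2 were measured and none was called in any comparison. Of 11 erythrocyte genes 2 were measured, and both rose with D3T and with OLT: Alas2, the first enzyme of haem synthesis in red cells, by 1.93 and 1.84 (limma adjusted p = 0.00405 and 0.00968), and Hbb, a globin gene, by 1.0 and 1.10 (0.0212 and 0.0206). The array means of these red cell genes lay between 8.93 and 10.49 in controls and between 9.12 and 10.92 with BNF. They lay between 10.84 and 11.85 with D3T and between 10.63 and 11.86 with OLT, beside the lower Cd163 values of the D3T and OLT groups. The part of the red cell genes in the result was not tested.

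Endothelial, stellate cell and hepatocyte markers were read beside the macrophage markers. Of 21 endothelial genes 10 were measured, and their array means were 6.26 to 6.93 in controls, 6.63 to 7.85 with BNF, 5.89 to 8.14 with D3T and 6.14 to 7.47 with OLT. All 10 had a higher mean with BNF than in controls, by a median of 0.72 against -0.05 for all kept probe sets. Aqp1, a water channel that other cells also express, rose with BNF (1.61, limma adjusted p = 0.0448). The sinusoidal markers Stab2 (0.73, 0.402) and Lyve1 (0.71, 0.602) and the endothelial adhesion gene Pecam1 (0.32, 0.234) did not pass. The Aqp1 call was lost without both D3T 5 and OLT 1, and when any single array other than control 1, BNF 3, D3T 1, D3T 2 or OLT 1 was left out, so that 0 of 10 were then called. Aqp1 also needed its BNF arrays to pass the filter, and 0 of the other 9 were called, with a median of 0.71. Of 22 stellate cell and fibroblast genes 16 were measured and 6 rose with BNF, or 5 of 15 without Dcn, which needed its BNF arrays to pass the filter. Among them were the collagen genes Col1a1 (2.45 ± 0.38 SE, limma adjusted p = 0.00101) and Col3a1 (0.95 ± 0.19, 0.00773) and the intermediate filament gene Vim (1.16 ± 0.22, 0.00471). The count was 3 without control 2, control 4, BNF 1 or BNF 2. With BNF 15 of the 16 stellate cell and fibroblast genes had a higher mean (median difference 0.39, or 0.38 without Dcn). With D3T, Acta2, smooth muscle actin, fell by 0.88 (limma adjusted p = 0.00469). Of 25 hepatocyte genes 23 were measured, with Apoa1 higher with BNF (0.78, limma adjusted p = 0.0126) and Tat lower with D3T (-1.06, 2.78e-04).

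Deviations from the diet means were related to the deviations of these lists over the 20 arrays, in 27 relations of 9 markers to 3 lists. With the endothelial mean all 9 markers correlated positively, at Pearson's r between 0.54 and 0.80 (Spearman's rho 0.50 to 0.80), with adjusted permutation p for r between 0.00081 and 0.036 and for rho between 0.0046 and 0.068. Csf1r (0.80) and Cd163 (0.78) had the highest r and Clec4f (0.54) the lowest. Without D3T 1 and OLT 5, the arrays farthest from the median, r lay between 0.34 and 0.66. With the stellate mean only Csf1r passed (r = 0.50, rho = 0.52, adjusted permutation p = 0.014 and 0.041), and with the hepatocyte mean none did.

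When the endothelial mean of each array was added to the model as a covariate, none of the 9 markers was called for BNF against control, and Tyrobp differed by 0.67 (limma adjusted p = 0.0843). For BNF against D3T 4 of 9 were called (3 of the 8 without Laptm5). For BNF against OLT 3 of 9 were called, namely Cd163, Tyrobp and C1qa. For D3T against control 1 was called, Cd163, at -1.07 (limma adjusted p = 0.00801). Over all kept probe sets this model called 1.49% for BNF against control, where 3.48% were called without the covariate. It called 10.9% for BNF against D3T (14.9% without it), 3.85% for BNF against OLT (9.62%) and 13.0% for D3T against control (11.6%). The covariate holds Fcgr2b, which macrophages also express, and it differed between the diets itself. The part of the endothelial content of an extract in these differences was not tested.

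**Figure D4:**
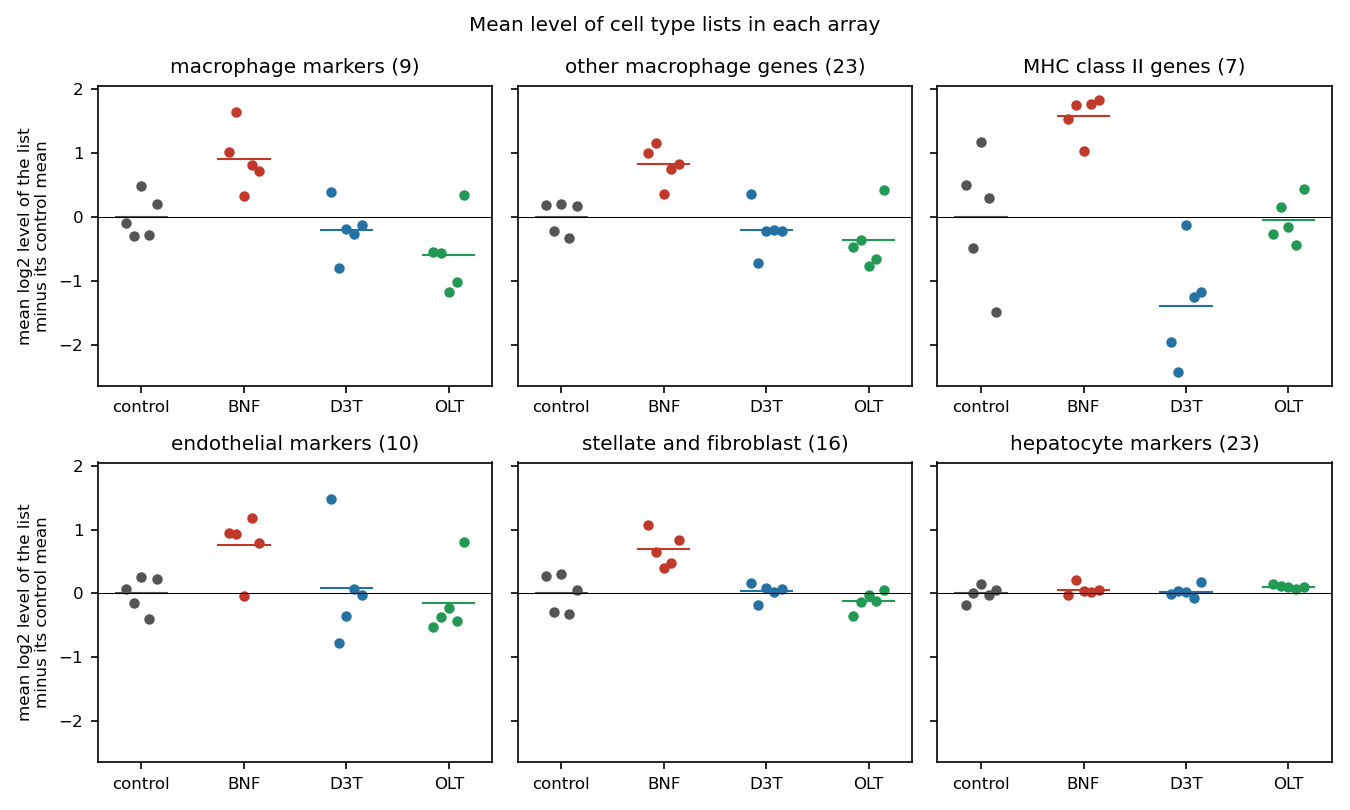
Mean log2 level of 6 gene lists in each array, minus the list's control mean, by diet, with a line at each diet mean. By their diet means, the 9 macrophage markers, the 23 other macrophage genes and the 7 MHC class II genes sit highest with BNF. So do the 10 endothelial markers (7.43 with BNF, 6.67 in controls) and the 16 stellate cell and fibroblast genes (7.86 and 7.17). The endothelial markers spread most within D3T (5.89 to 8.14 as array means). The 23 hepatocyte markers stay between 14.32 and 14.71 before the control mean is taken off.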

How the data were processed

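Liver RNA of 20 rats was labelled with biotin and hybridized to 1-colour Affymetrix arrays, per the labels' protocols. The authors deposited 1 table of log2 values for 31042 probe sets, made with GCRMA per the submitters' processing notes, version not stated, and it was used as given. Arrays give no read depth, and 5 rats per diet limit the precision. Gene names came from the platform annotation and were brought up to date by gene identifier (20826 with 1 gene, 436 with several, 9780 with none).

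A filter kept the 12947 probe sets (41.7%) that exceeded 4 on the log2 scale in 5 or more arrays, and the brightest kept probe set on average stood for its gene. Means per diet were fitted over all 20 arrays with limma 3.58.1 (R 4.3.3, lmFit and eBayes with an intensity trend, two-sided). P-values were adjusted by Benjamini-Hochberg over all kept probe sets, and called means an adjusted p under 0.05. The procedure was tested on simulated data. All markers were described. From the other lists the text gives called genes, up to 3 per list and comparison by smallest adjusted p, or up to 2 with the smallest p, and in addition Adgre1, Lyz2, Mpeg1, Cd14, Stab2, Lyve1, Pecam1, Fcgr2b and Alb, chosen after their values were seen. The 5 other genes nearest to the markers were also named. Relations across arrays used 100000 permutations within diets. The markers, the lists and the tests were chosen with earlier results of these data known. Promoter sequences came from RefSeq (GRCr8). Alternatives were other scalings, filters, weights, covariates and samples.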

Additional observations from a re-analysis of the deposited data

Results flagged for a closer look

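For 3 of the 40 groups of 5 arrays (10 probe sets in 4 diets), 1 array stood apart from the rest of its diet by Dixon's criterion, where chance gives about 1 in 20. Tyrobp in D3T 2 was the lowest of its group at 3.97, with the nearest array at 4.37. Cd68 in D3T 1 was the highest of its group at 6.61, with the nearest array at 5.90. The Laptm5 probe set that was not kept read 3.70 in OLT 5, the highest of its group, with the nearest array at 2.60. D3T 1 and OLT 5 were also the arrays in which every marker was highest for its diet.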

How the results depend on the processing

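Marker counts under other settings were as follows. For BNF against control (2 called), 5 were called after centring on the array median and after quantile normalization, 7 with array weights, 4 with the interquartile range as covariate, 1 with no filter, 1 with the hepatocyte mean as covariate and 0 with the endothelial mean. With the replicate number as a block 1 was called; the labels do not pair the rats, 11 of 30 same-numbered pairs correlated above 0.1, and 2 arrays were closest to their own number. The shares of all kept probe sets called under these settings were 3.87% after centring, 4.42% after quantile normalization, 11.4% with array weights, 5.75% with the interquartile range, 2.97% with the hepatocyte mean, 1.49% with the endothelial mean and 3.24% with the block, against 3.48%. Without Laptm5 (1 of 8 called), 4, 4, 6, 3, 1, 0 and 1 were called in that order. With only the groups compared 3 were called, all among these 8, where 3.72% of all kept probe sets were called. They included Csf1r (limma adjusted p = 0.00452) and C1qb (0.0353), and the Laptm5 call was lost (0.0529). For D3T against control (0 called), 1 was called with array weights, with only the groups compared and with the endothelial covariate. In that order these settings called 22.3%, 9.67% and 13.0% of all kept probe sets, against 11.6%. For OLT against control (1 called), 0 were called with no filter, with only the groups compared, with the interquartile range as covariate and without the arrays labelled D3T 5 and OLT 1. Of all kept probe sets, 2.95% were called with only the groups compared and 6.28% with the interquartile range, against 6.38%. In all, 457 probe sets were called with no filter and 594 without both arrays, against 826. The endothelial covariate left 4 for BNF against D3T (7 called) and 3 for BNF against OLT (9 called). Leaving out 1 array gave 1 to 5 for BNF, 0 to 1 for D3T and 0 to 2 for OLT against control, 0 for OLT against D3T, 5 to 8 for BNF against D3T and 9 for BNF against OLT, or 1 to 4, 0 to 1, 0 to 2, 0, 4 to 7 and 8 over the 8 without Laptm5.

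Differences that turned sign were all of D3T against control, with 1 exception. After centring they were 0.04 for Tyrobp, 0.06 for Laptm5, 0.11 for Clec4f, 0.00 for C1qc and 0.04 for Csf1r. Quantile normalization gave 0.02 for Csf1r. Array weights gave 0.13 for Laptm5, 0.04 for Clec4f and 0.04 for C1qc. The interquartile range covariate gave 0.03 for Laptm5, 0.04 for Clec4f and 0.13 for Csf1r. Leaving out 1 array gave -0.20 to 0.06 for Laptm5, -0.14 to 0.07 for Clec4f, -0.52 to 0.14 for C1qb, -0.26 to 0.06 for C1qc and -0.29 to 0.11 for Csf1r. The exception was Cd163 for BNF against control, at -0.25 with the endothelial covariate. The causes were not tested. Of the 23 other macrophage genes (3 called with BNF against control), 7 were called after centring, quantile normalization and the interquartile range covariate, 16 with array weights, 6 with only the groups compared and 2 with the endothelial covariate. For BNF against OLT (16 called) the last 2 settings gave 10 and 3, where 6.97% and 3.85% of all kept probe sets were called. Over all probe sets the counts ranged from 193 (endothelial covariate) to 1480 (array weights) for BNF against control (450 called), 974 (no filter) to 2885 (array weights) for D3T (1502) and 381 (hepatocyte covariate) to 2054 (array weights) for OLT (826). They ranged from 0 to 549 (without D3T 5 and OLT 1) for OLT against D3T (0), and, from the endothelial covariate to array weights, 1408 to 3337 for BNF against D3T (1935) and 498 to 2767 for BNF against OLT (1246).

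The stricter filter removed Tyrobp and Laptm5, the markers called above for BNF against control. Under it Cd68 (limma adjusted p = 0.0469) and Csf1r (0.0477) were called in that comparison, where 418 probe sets were called in all. Low values such as those of Laptm5 lie near the low end of the scale, and 5 rats per diet limit every interval.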
